A study of Mus musculus with 18 samples.

Results

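A set of 10 genes of the core machinery of macroautophagy was followed across mouse retinal pigment epithelium (RPE): Map1lc3a, Map1lc3b, Gabarapl1, Sqstm1, Becn1, Ulk1, Atg5, Atg7, Atg16l1 and Rubcn. They were taken by symbol from the deposited count table, in which they are 10 of 21859 rows, and all 10 passed the filter on low counts that left 15944 genes to test. Transcript levels were measured by bulk RNA sequencing of RPE cells in 18 libraries. Young (7 libraries) is RPE of young mice and Old (4 libraries) is RPE of aged mice, neither with a vector named in the labels. Old-Control (3 libraries) is aged RPE after AAV2-tTA, an adeno-associated virus vector that carries the tetracycline-controlled transactivator tTA. Old-OSK (4 libraries) is aged RPE after AAV2-tTA together with TRE-OSK, in which a promoter answering to tTA stands before Oct4 (Pou5f1), Sox2 and Klf4. Old-Control therefore shares the AAV2-tTA vector with Old-OSK. Strain, ages, vector doses, times and the promoter that drives tTA are not given in the labels used here. No label says whether the libraries of a group came from separate animals, so p-values measure the spread between libraries, which may be technical.

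Macroautophagy encloses cytoplasm in a double membrane, the autophagosome, and delivers it to lysosomes. The Ulk1 kinase complex starts the process, the lipid kinase complex that contains Beclin 1 marks the membrane, and the E1-like enzyme Atg7 and the Atg5-Atg12-Atg16l1 complex couple proteins of the ATG8 family (LC3 and GABARAP proteins) to lipid. In the RPE the same conjugation enzymes also serve LC3-associated phagocytosis, by which the cells degrade the outer segment tips that photoreceptors shed. In phagocytes that process needs Rubicon (Rubcn), which otherwise restrains autophagosome maturation, and the NADPH oxidase. Much of the pathway is controlled on proteins and lipids, which transcript levels do not measure.

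Library totals ran from 18104828 to 32348136 counts, and the lowest count of any of the 10 genes in any library was 458, for Atg16l1. The vector genes separated the vector groups: on the log2 scale Pou5f1 was 6.86 higher in Old-OSK than in Old-Control (SE 1.34, adjusted p = 0.024 in edgeR) and Sox2 3.58 higher (SE 0.499, adjusted p = 0.00343), while Klf4, at 3.43 (SE 0.848), had an adjusted p of 0.0631. The summed RPE markers were abundant in every library (at least 14800 CPM), although Best1 among them was sparse, and Old replicate 4 and Old-Control replicate 2 lay among the Old-OSK libraries on the first principal component. In the labels, 6 library names (3 Young, namely replicates 5, 6 and 7, then Old-Control replicates 2 and 3 and finally Old-OSK replicate 4) hold a letter M that the labels do not explain. Those 6 have 4040 to 5493 Y-linked counts and the others at most 93, so by these counts the 6 are male libraries. No Old library is among them. Sex is thus uneven between the groups, and a fit with M as a covariate adjusts for it.

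LC3A, LC3B and GABARAPL1, the proteins of the first 3 genes, belong to 1 family, so stretches at or near the ends of their coding sequences are shown to make plain how far reads can tell the genes apart. Each line is 60 bases, from GENCODE M21 transcripts (GRCm38), aligned without gaps to the last bases before the stop codon of Map1lc3a, and capitals mark bases that differ from Map1lc3a. The Gabarapl1 stretch also ends at its stop codon, while the coding sequence of Map1lc3b (378 bases with the stop codon, shown from 304 to 363) runs further than its stretch.

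Map1lc3a: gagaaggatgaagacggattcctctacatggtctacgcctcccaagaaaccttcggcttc

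Map1lc3b: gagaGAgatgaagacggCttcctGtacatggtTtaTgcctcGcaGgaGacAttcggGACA

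Gabarapl1: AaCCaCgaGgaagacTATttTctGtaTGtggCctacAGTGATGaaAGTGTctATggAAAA

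Map1lc3b differs from Map1lc3a at 14 of the 60 bases and Gabarapl1 at 31. Over whole principal transcripts, none of the 10 genes shares a 50-base window with another of the 10. Map1lc3b is the exception against the rest of the genome: 333 of its 2483 windows (13.4%) also occur in the transcripts of 135 other annotated genes, most of them in Gm6055, and how such reads were counted is not given in the sources used here. Becn1 shares 8 of 4316 windows and the other 8 genes share none.

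The hexamer CACGTG is shown because it is the core of the site bound by TFEB, TFE3 and MITF, regulators of lysosomal and autophagy genes, and MITF is also the RPE's own pigment cell factor. RefSeq promoters of 300 bases, most of each before the start (GRCm38.p6), were at hand for 7 of the 10 genes, as 8 promoters. CACGTG, which reads the same on both strands, occurs in 3 of the 8, beside 7.15% of 32817 promoters of that length. The stretches around these 3 matches that lie before the start are given 5′ to 3′ on the gene's strand, with the hexamer in capitals.

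Atg5, chr10:44268298-44268338, + strand: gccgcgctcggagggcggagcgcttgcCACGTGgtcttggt

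Atg7, chr6:114670937-114670996, + strand: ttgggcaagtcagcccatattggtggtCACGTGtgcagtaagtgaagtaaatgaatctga

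Rubcn, chr16:32868422-32868481, - strand: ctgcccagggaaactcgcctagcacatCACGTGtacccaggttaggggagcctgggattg

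The match begins 14 bases before the start in Atg5, 132 in Atg7 and 88 in Rubcn. The Atg7 stretch is intronic to longer annotated Atg7 transcripts, and the Rubcn stretch belongs to the inner of its 2 RefSeq starts. The antioxidant response core TGACNNNGC, searched on both strands and not overlapping CACGTG, occurs in 1 of the 8 promoters (Map1lc3b), beside 12.4% of all. A match describes these letters and no binding was measured.

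The 10 genes were compared in 4 contrasts, and few of them changed. None was called between Old and Young, between Old-OSK and Old-Control or between Old-Control and Old, and 3 were called between Old-OSK and Young: Map1lc3a fell, while Map1lc3b and Atg16l1 rose. Old-OSK and Young differ in age, in AAV2-tTA and in TRE-OSK at once, and these cannot be told apart in that contrast. Called means an adjusted p under 0.05 in edgeR's quasi-likelihood test over all 15944 genes. Levels are CPM, read counts scaled to a common library size after TMM, and fold changes are on the log2 scale of the fit. The contrasts share libraries with each other, so their values are given side by side and not as repeats of one another.

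The background against which these counts are read differs widely. From Young to Old 9.56% of all tested genes were called (5.4% higher and 4.16% lower) and 0 of the 10. At an unadjusted p under 0.05 the share was 29% of all genes and 1 of the 10, Atg7, and DESeq2 also called 0 of the 10. In the vector comparison, Old-OSK against Old-Control, 0.728% of all genes were called and 0 of the 10. At an unadjusted p under 0.05 the share was 26.3% and 1 of the 10, Map1lc3a, which DESeq2 called. For Old-Control against Old 0% of all genes were called and 0 of the 10 by edgeR and by DESeq2, and at an unadjusted p under 0.05 the share was 3.74% and 0 of the 10. For Old-OSK against Young 46.4% of all genes were called (25.1% higher and 21.3% lower) and 3 of the 10, so the share of these genes was not above that of genes at large. The median size of the log2 fold change, regardless of sign, was 0.102 over the 10 genes and 0.243 over all genes in Old against Young. It was 0.105 against 0.281 in Old-OSK against Old-Control, 0.0866 against 0.158 in Old-Control against Old and 0.162 against 0.41 in Old-OSK against Young. All genes were not matched to the 10 for expression level. No count of the 10 genes was under 458, while the filter used a minimum count of 10. The signed medians of the 10 genes were -0.051, -0.0158, 0.0396 and 0.000382 in the same order, and those of all genes were -0.00435, -0.0278, 0.0372 and 0.0574.

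**Figure D1:**
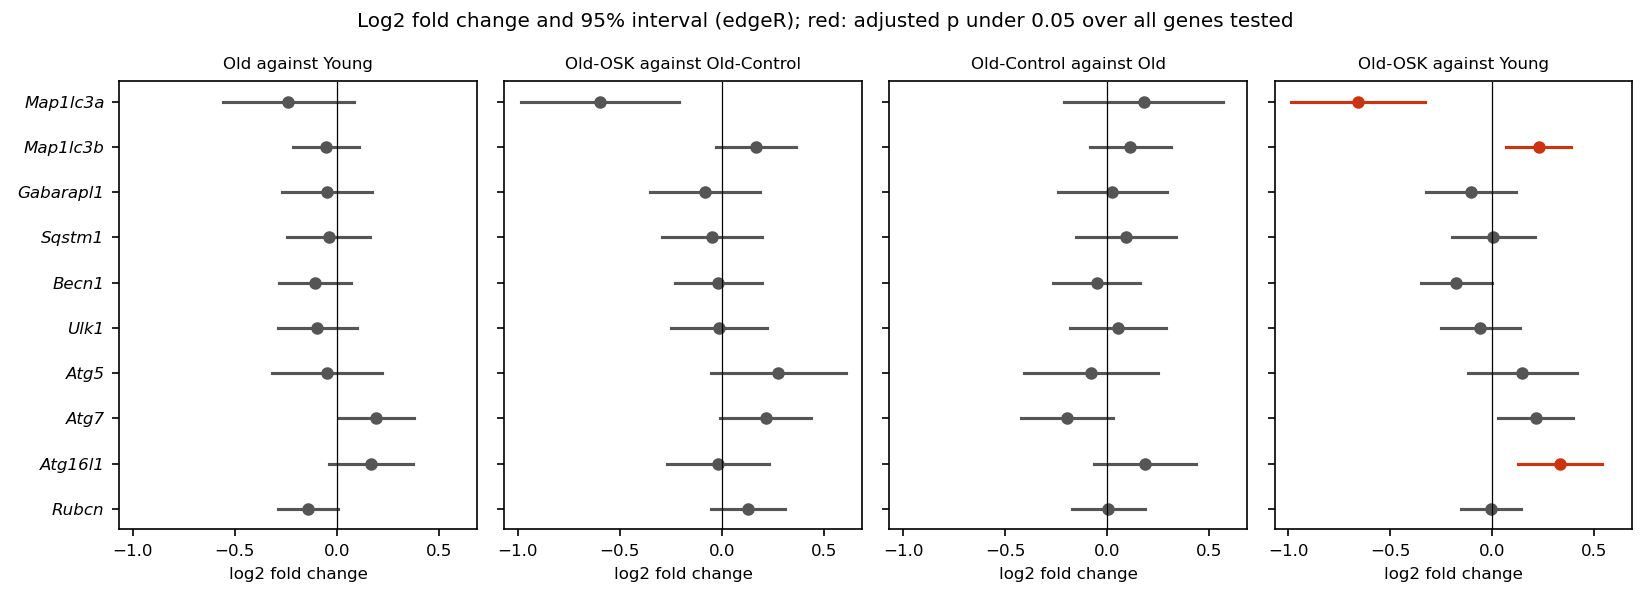
Log2 fold change (x axis) of the 10 autophagy genes (y axis) in the 4 contrasts; points are edgeR estimates, lines their 95% intervals, and red marks an adjusted p under 0.05 over all genes tested. Red appears only in Old-OSK against Young, for Map1lc3a (-0.66), Map1lc3b (0.23) and Atg16l1 (0.33).

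Compared per kilobase of the principal transcript, the 10 genes fall into an abundant and a sparse set in Young RPE. Sqstm1 stood highest at 225 ± 13 CPM per kilobase (SD, n = 7), followed by Map1lc3a at 190 ± 29.3, Gabarapl1 at 79.1 ± 5.66 and Map1lc3b at 53.9 ± 4.66. The other 6 lay between 8.7 ± 0.738 (Atg16l1) and 17.8 ± 0.545 (Becn1) CPM per kilobase. The ATG8 genes and the cargo receptor, whose proteins are themselves carried into the autophagosome, were thus the abundant transcripts, and the enzymes and complex subunits the sparse ones. The order depends on the length used: over the union of annotated exons Map1lc3a (179) is above Sqstm1 (136) and Map1lc3b drops to 18.2 CPM per kilobase. Within a gene, 28 of the 30 pairs of neighbouring groups in the order of mean levels overlap, and over all tested genes 3.95% of such pairs do not. The 2 exceptions are Map1lc3a in Old-OSK below Old and Atg16l1 in Young below Old.

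**Figure D2:**
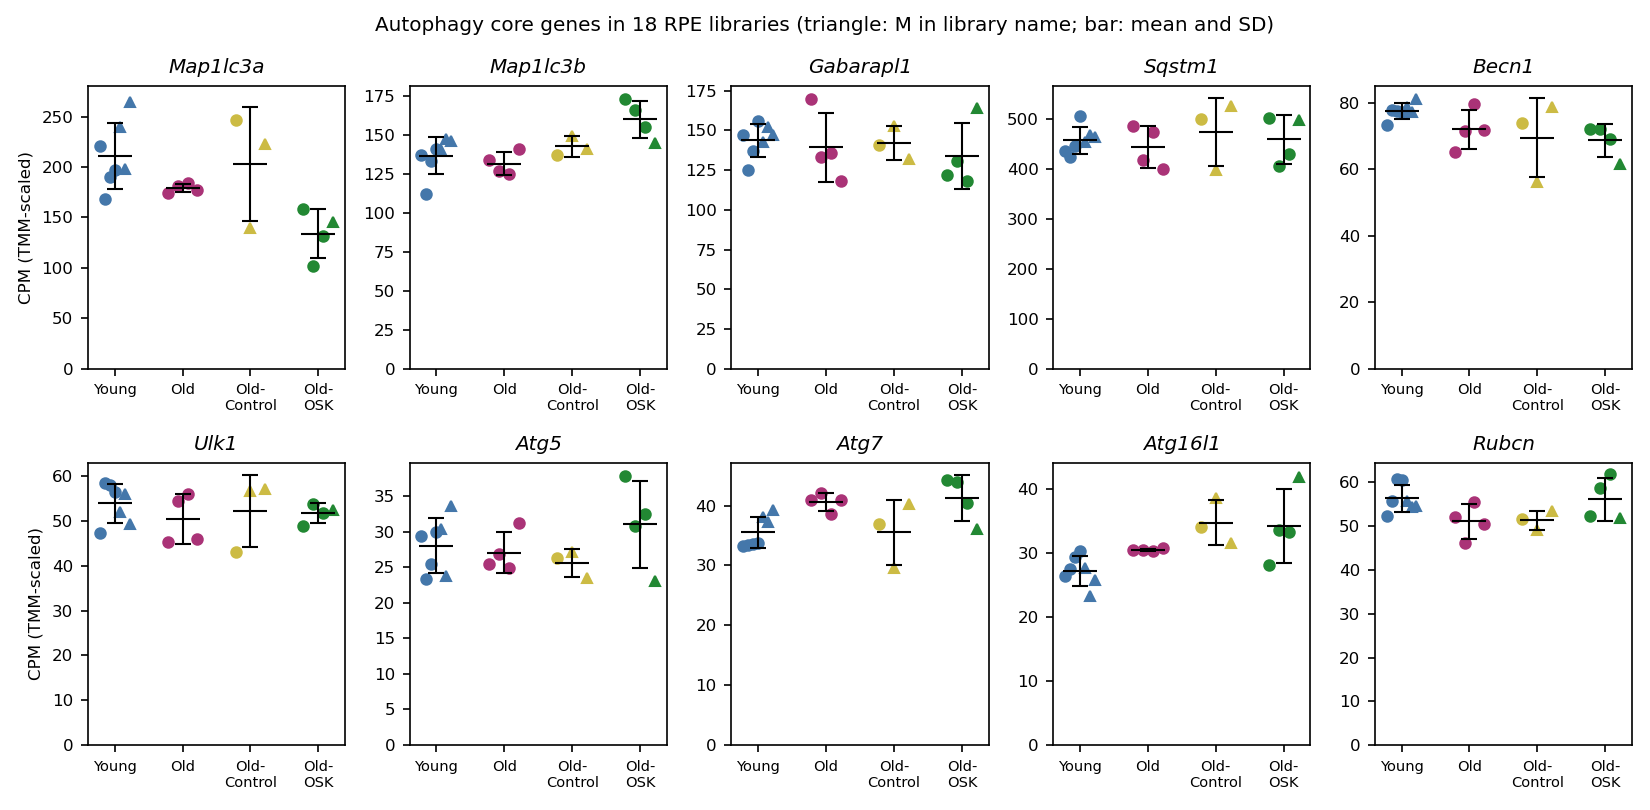
CPM (y axis, from 0) of the 10 autophagy genes in each library of the 4 groups; circles and triangles are libraries, triangles those with M in the library name, and bars the group mean with SD. Map1lc3a in Old-OSK (102 to 158 CPM) lies below Young (168 to 264 CPM) and Old (174 to 184 CPM), and most other groups overlap.

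Map1lc3a (chromosome 2, 155276297 to 155278073, + strand, GRCm38) encodes LC3A, an ATG8 protein that is joined to the autophagosome membrane and binds cargo receptors. It varied more than any other of the 10 genes, 2.59-fold between the lowest and the highest library. The Young libraries had a low of 168 CPM, a median of 198 CPM and a high of 264 CPM. The 4 Old libraries had 174, 181, 184 and 177 CPM (replicates 1 to 4). Old-Control had 247, 139 and 223 CPM, and Old-OSK had 158, 102, 131 and 145 CPM. All 4 Old-OSK libraries lie below all Young and all Old libraries, while Old-Control replicate 2 lies within the Old-OSK range. The mean was 211 ± 32.6 CPM in Young (SD, n = 7) and 133.9 ± 24 CPM in Old-OSK (SD, n = 4). Map1lc3a fell by 0.66 on the log2 scale (SE 0.155, 95% interval -0.98 to -0.33, adjusted p = 0.00316 in edgeR). This call held in all 11 fits that each left out a library, between -0.77 and -0.54.

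Against Old-Control, Map1lc3a in Old-OSK had a log2 fold change of -0.60 (SE 0.184, 95% interval -0.99 to -0.21), which did not pass over all genes (edgeR adjusted p = 0.0851). Single libraries decide this call. Without Old-Control replicate 2 the log2 fold change was -0.84 and passed (adjusted p = 0.00709), as it did without Old-OSK replicate 4 (-0.67, adjusted p = 0.0477), and in none of the other 5 fits without a library, with adjusted p values up to 0.374. Between Old and Young the log2 fold change was -0.24 (SE 0.153, adjusted p = 0.32) and between Old-Control and Old it was 0.18 (adjusted p = 0.916).

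The summed RPE markers moved with Map1lc3a. The 8 markers (Rpe65, Rlbp1, Best1, Lrat, Rdh5, Rgr, Ttr and Rrh, which serve the visual cycle, transport and secretion) were detected in every library, and their summed level ran from 38600 to 64200 CPM in Young, 26500 to 46500 CPM in Old, 19800 to 61700 CPM in Old-Control and 14800 to 29300 CPM in Old-OSK. Old-Control replicate 2 holds the lowest value of its group and Old-OSK replicate 2, the lowest Map1lc3a library, holds the lowest of all. Of the 8 markers 6 fell between Old-OSK and Young, and none was called between Old-OSK and Old-Control by edgeR (7 of 8 had an unadjusted p under 0.05), while DESeq2 called 5 lower. Across the 18 libraries, which share depth scaling and group differences, Map1lc3a and the summed markers had a Pearson r of 0.936 on the log2 scale, and 0.877 after group means were removed, given as a description. Rgr and Ttr make up 66% (Young) to 71.3% (Old-OSK) of the sum, and r was 0.937 and 0.889 with the other 6 markers alone. Best1 did not follow the rest: it lay between 0.4 and 2.57 CPM, with a log2 fold change of 0.66 between Old-OSK and Young and 0.35 between Old-OSK and Old-Control, and was called in neither. In bulk RNA, fewer RPE cells and less of a transcript per cell cannot be told apart, and the part of cell makeup in the Map1lc3a result was not tested.

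**Figure D3:**
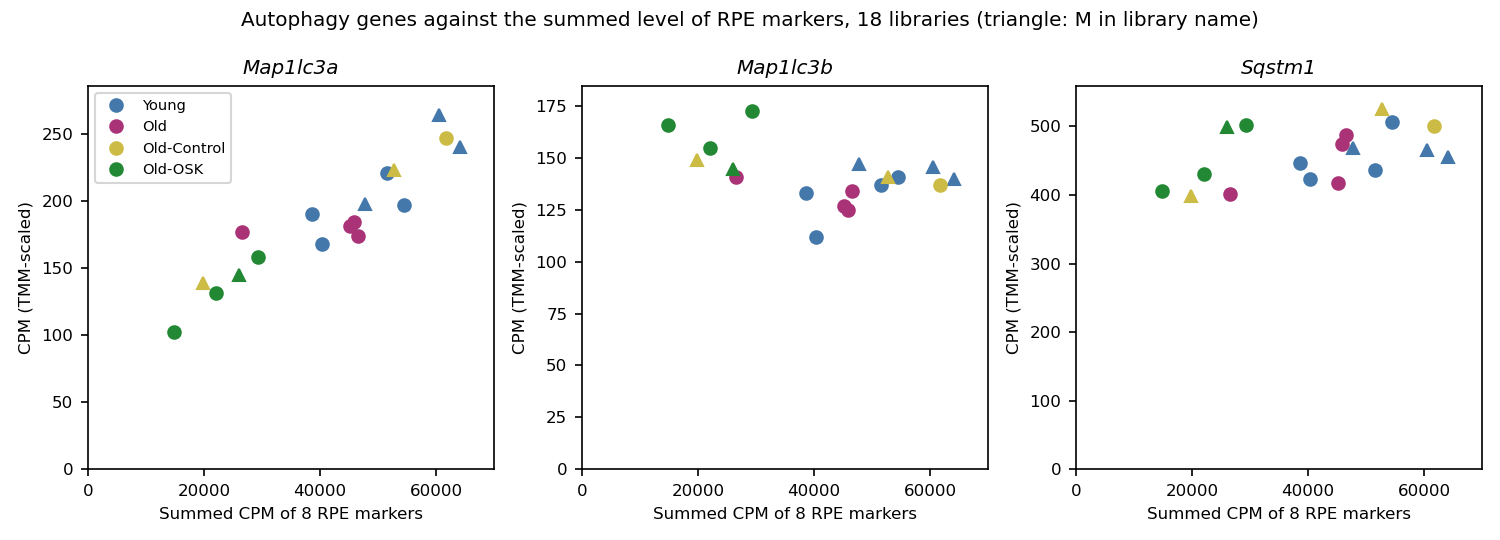
CPM of Map1lc3a, Map1lc3b and Sqstm1 (y axes) against the summed CPM of 8 RPE markers (x axis) in 18 libraries; colours are groups, triangles are libraries with M in the name. Map1lc3a ascends with the marker sum from 102 CPM at 14800 to 264 CPM at 60600, and Map1lc3b is highest (173 CPM) at 29300, the highest sum among the Old-OSK libraries.

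The genes whose pattern over the 18 libraries was most like that of Map1lc3a, among the 10231 genes whose mean log2 CPM reached 3, were Metrn (Pearson r = 0.965), H4c9 (0.965) and Chchd10 (0.959). Removing group means left 0.94, 0.918 and 0.91.

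Map1lc3b (chromosome 8, 121590361 to 121598760, + strand) encodes LC3B, the family member most used as a marker of autophagosomes. The Young libraries had a low of 112 CPM, a median of 140 CPM and a high of 147 CPM. Old had 134, 127, 125 and 141 CPM, Old-Control had 137, 149 and 141 CPM, and Old-OSK had 173, 166, 155 and 145 CPM. The first 3 Old-OSK libraries lie above all libraries of the other groups, while replicate 4, the one with M in its name, lies among them. Relative to Young, Old-OSK had more Map1lc3b, which rose by 0.23 on the log2 scale (SE 0.0761, 95% interval 0.07 to 0.39, adjusted p = 0.0218 in edgeR), a mean of 159.9 ± 12 CPM (SD, n = 4) against 136.5 ± 11.8 CPM (SD, n = 7). The call was lost without Old-OSK replicate 1 (adjusted p = 0.118) and without Old-OSK replicate 2 (adjusted p = 0.052), and held in the other 9 fits. It was also lost with rod markers as a covariate (0.19, adjusted p = 0.148). Map1lc3a and Map1lc3b thus moved in opposite directions in this contrast. Map1lc3b in Old-OSK differed by 0.17 on the log2 scale from Old-Control (SE 0.0937, adjusted p = 0.273), and Old differed from Young by -0.05 (SE 0.0768, adjusted p = 0.686). The gene shares 58 exon bases with Zcchc14 on the opposite strand.

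Gabarapl1 (chromosome 6, 129533160 to 129542346, + strand) encodes a member of the GABARAP branch of the family. Its libraries ran from 125 to 156 CPM in Young, with a median of 147 CPM. Old had 170, 133, 136 and 118 CPM, Old-Control 141, 153 and 132 CPM, and Old-OSK 122, 131, 118 and 164 CPM. The groups overlap throughout, and the highest and lowest libraries of Old and of Old-OSK span nearly the whole range of the gene. The log2 fold change was -0.05 (95% interval -0.27 to 0.17, adjusted p = 0.8) between Old and Young and -0.08 (95% interval -0.35 to 0.19, adjusted p = 0.749) between Old-OSK and Old-Control. It shares 570 exon bases with 1700101I11Rik on the opposite strand, and since the library kit does not mark strand, reads from the 2 genes there cannot be told apart.

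Sqstm1 (chromosome 11, 50199366 to 50210827, - strand) encodes p62, the receptor that links ubiquitinated cargo to ATG8 proteins and is itself degraded by autophagy. None of the 4 contrasts called it. Young ran from 424 to 506 CPM with a median of 455 CPM, Old had 487, 418, 474 and 401 CPM, Old-Control 501, 398 and 526 CPM, and Old-OSK 502, 406, 430 and 499 CPM. Both the lowest and the highest library are Old-Control libraries, and the means lie between 444.8 ± 41.9 CPM (Old, SD, n = 4) and 474.7 ± 68 CPM (Old-Control, SD, n = 3). Its estimate was -0.04 on the log2 scale (95% interval -0.24 to 0.16, adjusted p = 0.815 in edgeR) between Old and Young and -0.05 (95% interval -0.29 to 0.20, adjusted p = 0.851) between Old-OSK and Old-Control. Within groups Sqstm1 followed the RPE markers too (r = 0.822 after group means were removed, 0.542 before). It shares 580 exon bases with Mrnip on the opposite strand.

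Becn1 (chromosome 11, 101285952 to 101302286, - strand) encodes Beclin 1, a subunit of the lipid kinase complex. Young ran from 73.3 to 81.3 CPM with a median of 77.5 CPM, Old had 65.2, 71.7, 79.6 and 71.8 CPM, Old-Control 73.9, 56.2 and 78.7 CPM, and Old-OSK 72.3, 72.1, 69.2 and 61.5 CPM. All 4 Old-OSK libraries lie just below all 7 Young libraries, as they do in either direction for 28.2% of all genes, and 2 of the 10 autophagy genes (Map1lc3a and Becn1) have this separation. The difference between Old-OSK and Young, a log2 fold change of -0.17 (SE 0.0832, 95% interval -0.35 to 0.000806), did not pass (adjusted p = 0.0951). It was -0.11 (adjusted p = 0.416) between Old and Young and -0.02 (95% interval -0.23 to 0.20, adjusted p = 0.942) between Old-OSK and Old-Control. Its lowest library, Old-Control replicate 2, also holds the highest summed rod markers, 7690 CPM. Becn1 shares 3104 exon bases with Cntd1 on the opposite strand, the largest overlap among the 10 genes, and Cntd1 had a mean of -1.40 log2 CPM over the 18 libraries.

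Rubcn (chromosome 16, 32821703 to 32877766, - strand) encodes Rubicon, which binds the Beclin 1 complex, restrains autophagosome maturation and is needed for LC3-associated phagocytosis. Young ran from 52.4 to 60.8 CPM with a median of 55.8 CPM, Old had 52.2, 46.1, 55.6 and 50.5 CPM, Old-Control 51.6, 49.1 and 53.4 CPM, and Old-OSK 52.3, 58.8, 61.9 and 51.8 CPM. Old is the lowest group and overlaps Young. On the log2 scale Rubcn differed by -0.14 between Old and Young (SE 0.07, 95% interval -0.29 to 0.01, adjusted p = 0.195 in edgeR) and by 0.13 between Old-OSK and Old-Control (SE 0.0851, adjusted p = 0.362). It shares 171 exon bases with Fyttd1 on the opposite strand.

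Ulk1 (chromosome 5, 110784488 to 110810097, - strand) encodes the kinase that starts autophagosome formation when growth signals through mTOR are low. Young ran from 47.3 to 58.5 CPM with a median of 56.1 CPM, Old had 45.3, 54.6, 56.1 and 46 CPM, Old-Control 43, 56.8 and 57.2 CPM, and Old-OSK 48.9, 53.9, 51.9 and 52.5 CPM. The Old and Old-Control libraries each split into low and high values, and the Old-OSK libraries lie between them. Ulk1 differed by -0.10 on the log2 scale (95% interval -0.29 to 0.10, adjusted p = 0.517 in edgeR) between Old and Young and by -0.01 (95% interval -0.25 to 0.22, adjusted p = 0.957) between Old-OSK and Old-Control.

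Atg5 (chromosome 10, 44268358 to 44364291, + strand) is the protein to which Atg12 is coupled before the pair binds Atg16l1. Young ran from 23.3 to 33.6 CPM with a median of 29.4 CPM, Old had 25.4, 26.8, 24.9 and 31.2 CPM, Old-Control 26.3, 27.1 and 23.4 CPM, and Old-OSK 37.8, 30.8, 32.5 and 23 CPM. Old-OSK holds both extremes: replicates 1 to 3 lie above all Old-Control libraries and replicate 4 below them. Old-OSK differed from Old-Control by 0.28 on the log2 scale (SE 0.156, 95% interval -0.05 to 0.61, adjusted p = 0.277), and between Old and Young it was -0.05 (adjusted p = 0.834).

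Atg7 (chromosome 6, 114643097 to 114860614, + strand) encodes the E1-like enzyme that activates both Atg12 and the ATG8 proteins. Young ran from 33.2 to 39.3 CPM with a median of 33.8 CPM, Old had 41, 42.1, 38.6 and 41 CPM, Old-Control 36.9, 29.5 and 40.2 CPM, and Old-OSK 44.3, 44, 40.4 and 36.1 CPM. In Old, 3 libraries lie above all Young libraries, and replicate 3 lies below 1 of them. Old differed from Young by 0.19 on the log2 scale (SE 0.0865, 95% interval 0.01 to 0.38), which did not pass over all genes (adjusted p = 0.148 in edgeR). For Old-OSK against Old-Control it was 0.21 (SE 0.106, adjusted p = 0.212), between Old-OSK and Young 0.21 (SE 0.0865, adjusted p = 0.0523) and between Old-Control and Old -0.19 (adjusted p = 0.9). The genes most like Atg7 over the 18 libraries were Rell1 (r = 0.89), Tmed3 (0.824) and Acp5 (0.818).

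Atg16l1 (chromosome 1, 87755870 to 87792428, + strand) encodes the subunit that places the conjugation complex on membranes. Young ran from 23.4 to 30.3 CPM with a median of 27.5 CPM, Old had 30.5, 30.5, 30.4 and 30.8 CPM, Old-Control 34.2, 38.6 and 31.6 CPM, and Old-OSK 28.2, 33.7, 33.3 and 42 CPM. All 4 Old libraries lie above all Young libraries, by a narrow margin (30.4 against 30.3 CPM), and all Old-Control libraries lie above all Old libraries. Such separation was seen for 1 of the 10 genes in each of these contrasts, Atg16l1, and for 9.3% of all genes between Old and Young and 3.18% between Old-Control and Old. Neither difference passed: 0.17 (SE 0.0973, adjusted p = 0.267) between Old and Young and 0.19 (adjusted p = 0.9) between Old-Control and Old. From Young to Old-OSK it rose by 0.33 on the log2 scale (SE 0.0968, 95% interval 0.13 to 0.54, adjusted p = 0.0104 in edgeR), a mean of 34.29 ± 5.75 CPM (SD, n = 4) against 27.22 ± 2.31 CPM (SD, n = 7), with 3 of the 4 Old-OSK libraries above all Young libraries. Old-OSK replicate 4 decides that call, since without it the log2 fold change was 0.19 (adjusted p = 0.0994). Old-OSK and Old-Control differed by -0.02 (95% interval -0.27 to 0.23, adjusted p = 0.943).

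Rod photoreceptor markers stand beside the Atg16l1 and Map1lc3b results. The 7 rod markers (Gnat1, Pde6a, Pde6b, Sag, Nrl, Cnga1 and Rp1) summed to 63.3 to 1260 CPM in Young, 906 to 3010 CPM in Old, 709 to 7690 CPM in Old-Control and 1160 to 6760 CPM in Old-OSK. The highest 2 libraries, Old-Control replicate 2 and Old-OSK replicate 4, are also the 2 highest for Atg16l1. On the log2 scale Atg16l1 had a Pearson r of 0.704 with the rod sum (0.475 after group means were removed). With summed cone markers r was 0.735 (0.748) and with summed endothelium markers 0.638 (0.628). For Map1lc3b and the rod sum r was 0.395 (0.247). Of the marker lists, only the rod list was used as a covariate. All 7 rod markers rose between Old-OSK and Young. With rod markers as a covariate the Atg16l1 log2 fold change between Old-OSK and Young was 0.21 (adjusted p = 0.189), so the call was lost, while that of Map1lc3a kept its call (-0.53, adjusted p = 0.0399). Macrophage markers also rose in that contrast (7 of 8, with 1 lower). Their part in the results was not tested.

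The 10 genes did not move as a block. Of the 45 pairs of genes, 20 had a positive and 25 a negative Pearson r of log2 CPM over the 18 libraries, with a median of -0.0496. The highest was 0.63 (Map1lc3b with Atg5) and the lowest -0.728 (Becn1 with Atg16l1). These values describe libraries that share scaling, groups and cell makeup.

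Of 60 other autophagy genes listed by role, all were tested. From Young to Old 2 rose and 2 fell, beside 9.56% called among all genes. Cybb, the catalytic subunit of the phagocyte NADPH oxidase, stood at 12.83 ± 3.15 CPM in Old (SD, n = 4) and at 2.811 ± 0.88 CPM in Young (SD, n = 7). It rose by 2.19 on the log2 scale (SE 0.213, adjusted p = 1.68e-05 in edgeR). The groups did not overlap for 4 of the 60, beside 9.3% of all genes. Its partner subunit Cyba rose by 0.51 (SE 0.144, adjusted p = 0.0376), a call that survived in 3 of 11 fits with a library left out. Of the 8 macrophage markers 6 rose in the same contrast (all 8 summed to 473 to 672 CPM in Young and 645 to 1100 CPM in Old). Most of the Young sum is Csf1r, whose mean was 493.5 CPM in Young and 391.1 CPM in Old and which was not called. The other 7 summed to 52.5 to 72.4 CPM in Young and 268 to 647 CPM in Old, and whether these transcripts came from RPE or from macrophages was not tested. Tmem41b, a scramblase of the endoplasmic reticulum needed for autophagosome formation, fell by 0.46 (SE 0.0856, adjusted p = 0.00498), from 61.7 to 89.2 CPM in Young to 51.3 to 54.2 CPM in Old. That call held in all 11 fits with a library left out, but not with equally numbered libraries as a block. Prkaa2, a catalytic subunit of the AMP-activated kinase that activates Ulk1, fell by 0.43 (SE 0.123, adjusted p = 0.0392), a call that held in 4 of the 11.

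The vector comparison called 1 of the 60, beside 0.728% of all genes. Ulk2, the kinase most like Ulk1, fell by 0.41 (SE 0.0909, edgeR adjusted p = 0.0459), from 38.4 to 45.7 CPM in Old-Control to 29.6 to 34.2 CPM in Old-OSK. It passed in 3 of the 7 fits that left a library out and was lost with equally numbered libraries as a block (adjusted p = 0.115), and without Old-Control replicate 2 the count of the 60 called was 13 in place of 1, when 17.9% of all genes were called. Between Old-Control and Old none of the 60 was called (0 also at an unadjusted p under 0.05 and by DESeq2). The 3 of lowest p there were Bnip3 (0.41), Stx17 (-0.14) and Optn (0.19), each with an adjusted p of 0.9 in edgeR. Without Old-Control replicate 2 the Bnip3 value was -0.05.

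For Old-OSK against Young 29 of the 60 were called, 6 higher and 23 lower, while 25.1% of all genes were called higher and 21.3% lower. The median log2 fold change of the 60 was -0.159, beside 0.0574 over all genes. By role, 7 of 12 cargo receptors fell and none rose, 4 of 6 fusion genes fell and 1 rose, and 3 of 10 regulators fell. Neither of the other 2 ATG8 genes (Gabarap and Gabarapl2) was called. The RPE and rod markers above moved in this contrast as well.

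**Figure D4:**
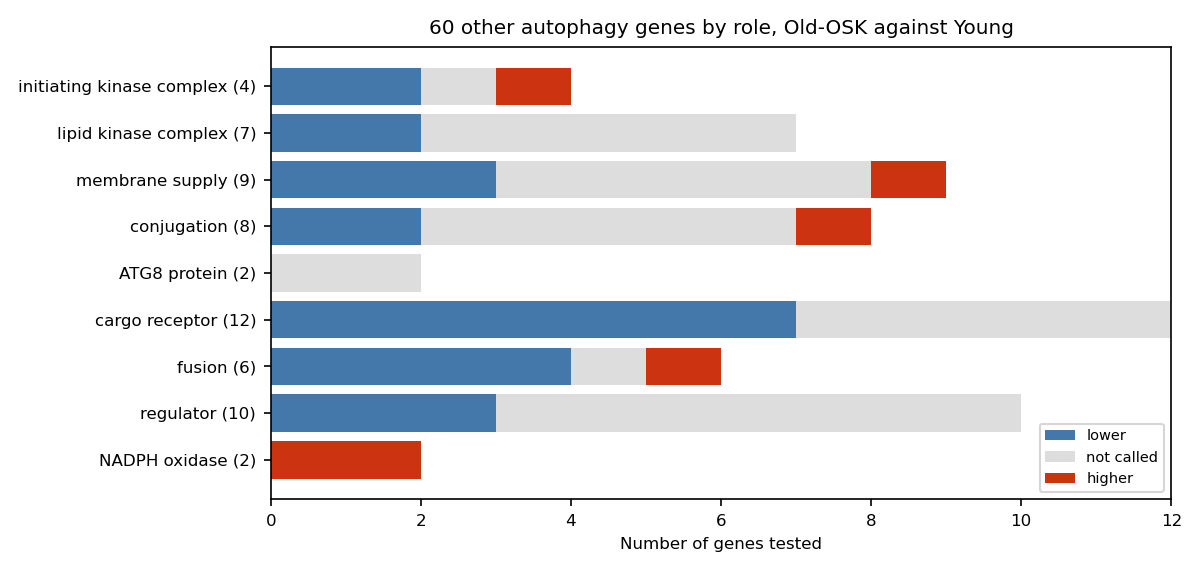
Number of other autophagy genes tested (x axis) in each role (y axis, total in parentheses) that were called lower, not called or called higher between Old-OSK and Young at an adjusted p under 0.05. Cargo receptors hold the most lower calls (7 of 12), and the 2 NADPH oxidase genes are both higher.

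The 8 genes of lowest p in that contrast were led by Cybb (2.57, SE 0.213, edgeR adjusted p = 1.01e-06) and Prkaa2 (-0.92, SE 0.126, adjusted p = 8e-05). Mtor, the kinase that holds Ulk1 inactive when nutrients are plentiful, fell by 1.38 on the log2 scale (SE 0.256, adjusted p = 0.000658), from 197 to 397 CPM in Young to 75.9 to 101 CPM in Old-OSK. Mitf, the pigment cell factor named above, fell by 0.74 (SE 0.143, adjusted p = 0.000898), from 102 to 127 CPM to 64.2 to 77.4 CPM. Epg5, a tether for the fusion of autophagosomes with lysosomes, fell by 0.71 (SE 0.136, adjusted p = 0.000798) and Tmem41b by 0.57. Cyba rose by 1.01 (SE 0.143, adjusted p = 9.72e-05) and Wdr45b, a phosphoinositide binding protein that acts at the forming membrane, by 0.51 (SE 0.0965, adjusted p = 8e-04). Over the whole list the groups did not overlap for 20 of the 60, beside 28.2% of all genes, and these 8, chosen for their low p, are among the 20. All 8 calls survived in each of the 11 fits with a library left out. Their calls under the other settings are not given here.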

How the data were processed

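Raw counts per gene, not normalized, were deposited by the authors as a single table for 18 libraries of polyA RNA. The RNA was amplified with a SMART-Seq v4 low-input kit and built with Nextera XT, per the labels' protocols. STAR 2.7.1a and featureCounts 1.6.2 are named in the submitters' processing notes, which also list mouse and human builds with no role. The annotation and the counting strand are not given in the sources used here. Every sample column was matched to a library by title (0 unused).

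The 10 genes, the lists and the tests were chosen with earlier results of these data known. Low counts were removed in edgeR 4.0.16 (filterByExpr, with a minimum count of 10 and a minimum total of 15), and the rest were scaled by TMM and fitted over all 18 libraries with 4 group means (glmQLFit and glmQLFTest, R 4.3.3), with Benjamini-Hochberg adjustment over 15944 genes and calls at 0.05. Standard errors were derived from the F statistic, and log2 CPM used a prior count of 2. The steps were tested on simulated data with a single dispersion and fold changes larger than those called among the 10 genes. That test does not cover small changes or outlying libraries. Coordinates, lengths and coding windows came from GENCODE M21 (GRCm38), promoters from RefSeq (GRCm38.p6). All 10 genes were named. Of the 60 others those called were named, up to the 8 of lowest p per contrast, or the 3 of lowest p where none was called. Similar genes were the 3 of highest Pearson r with the gene of lowest p in each of the first 2 contrasts.

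Replicates of a group differed far beyond counting noise (chi-square of at least 19.1 per gene over 36 pairs), so none was merged. In Old-OSK against Old-Control, deviations of equally numbered libraries had r values of 0.103, 0.421 and 0.339. The title numbers were therefore treated as pairs in an alternative fit, and the main fit used no pairs. That choice rests on this check alone, which took no unequally numbered libraries for comparison and so cannot show that libraries were paired. Y-linked counts were 15 and 5493 in replicate 2 of Old-OSK and Old-Control, and 4 and 5013 in replicate 3. The libraries of these pairs thus differ in sex and cannot come from the same animal. The library names number the libraries differently and match only 2 pairs there (r = 0.0981 and 0.185), too few for the check, so results with the block hold for the title numbers. In the other 3 contrasts 1 or more correlations were under 0.1, though single ones reached 0.359 (Old-Control against Old) and 0.352 (Old-OSK against Young). A further gene of the rod marker list is not reported here and was left out of the rod values. Alternatives were other size factors, 2 other filters, DESeq2 1.42.0, the compared groups alone, the letter M or rod markers as a covariate, a replicate block and leaving out each library. The fits without both Old replicate 4 and Old-Control replicate 2, without the M libraries and on equally numbered libraries without a block were added after seeing the data, as were marker sums without Rgr and Ttr or without Csf1r. PCR duplicates cannot be recognised in the counts, so counting error is a lower limit.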

Additional observations from a re-analysis of the deposited data

Results flagged for a closer look

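Of the 30 gene and group combinations with 4 or more libraries, 1 held a library far from the others of its group: Map1lc3b in Young replicate 2, at 112 CPM, while the other Young libraries had 133 to 147 CPM. Chance gives such a gap in about 1 of 20 groups. Without that library the log2 fold change of Map1lc3b between Old-OSK and Young was 0.19 (edgeR adjusted p = 0.0304), beside 0.23 with it, and the call held.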

How the results depend on the processing

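Among the 10 genes, only Map1lc3a between Old-OSK and Young kept its call under every alternative run. No alternative took RPE markers as a covariate, although Map1lc3a followed their sum (r = 0.936, and 0.877 after group means were removed). Of the 10 autophagy genes, the count called between Old-OSK and Old-Control was 1 (Map1lc3a) in place of 0 with DESeq2, without both Old replicate 4 and Old-Control replicate 2, and without the M libraries, and 0 to 1 with a library left out. Without the M libraries Old-Control is a lone library, assumed to vary like the other groups. Between Old-OSK and Young the count was 5 in place of 3 in the 2 groups alone and without those 2 libraries, with Becn1 (adjusted p = 0.0413 and 0.0121) and Atg7 (adjusted p = 0.037 and 0.0272) added, and 2 to 3 with a library left out. Map1lc3b and Atg16l1 lost their calls in that contrast with rod markers as a covariate, and Atg16l1 also without the M libraries (0.16, adjusted p = 0.197). Calls that others of the 10 genes may have gained with rod markers as a covariate are not listed here. Depth limits the values above little, since no count was under 458.

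Log2 fold changes that were not called crossed 0, most of them small but not that of Bnip3 (0.41), and the cause was not tested. In Old against Young these were Gabarapl1 with M as a covariate (0.0111), Map1lc3b (0.0159) and Atg5 (0.00556) with the block, the same genes on equally numbered libraries without it (0.0124 and 0.00275) and without the M libraries (0.00828 and 7.01e-05), and Gabarapl1 (0.0436) and Sqstm1 (0.0249) without both Old replicate 4 and Old-Control replicate 2. In Old-OSK against Old-Control they were Ulk1 with M as a covariate (0.00958), Becn1 with rod markers (0.00289), with the block (0.0462) and on those libraries without it (0.0323), Ulk1 (0.019) and Atg16l1 (0.0351) without the 2 libraries, and Ulk1 without the M libraries (0.26). In Old-Control against Old they were Bnip3 without the 2 libraries (-0.097) and Stx17 without the M libraries (0.0111). With a library left out, Old against Young ran from -0.16 to 0.0245 for Gabarapl1 and from -0.0864 to 0.00692 for Sqstm1. Old-OSK against Old-Control ran from -0.19 to 0.0316 for Sqstm1, -0.18 to 0.0796 for Becn1, -0.14 to 0.0535 for Ulk1 and -0.17 to 0.0348 for Atg16l1, and Bnip3 in Old-Control against Old from -0.0501 to 0.62.

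The counts over all genes, which set the background, moved more. Between Old and Young 1524 genes were called, 2452 with DESeq2, 600 with M and 463 with rod markers as a covariate, 622 without both Old replicate 4 and Old-Control replicate 2, 445 without the M libraries, and from 393 (without Old replicate 4) to 2140 (without Old replicate 1). Between Old-OSK and Old-Control 116 were called (65 higher, 51 lower; 64 and 29 with DESeq2's size factors), 1640 with DESeq2, 2 in the 2 groups alone, 58 with M as a covariate, 3729 without those 2 libraries, 1347 without the M libraries, and from 13 (without Old-Control replicate 1) to 2881 (without Old-Control replicate 2). Between Old-OSK and Young 7400 were called, and 4395 with rod markers as a covariate. The count of the 60 other autophagy genes called ran from 2 to 4, 0 to 13 and 26 to 29 in these contrasts with a library left out.

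The main fit of Old-OSK against Old-Control used no replicate block. An alternative fit of that contrast took equally numbered libraries as a block and called 461 genes (381 higher, 80 lower). When the block was dropped, 990 genes were called on those libraries. None of the 10 genes was called with the block (2 at an unadjusted p under 0.05 in edgeR). With the block Map1lc3a had a log2 fold change of -0.62 (adjusted p = 0.0639). The numbers were not shown to pair the libraries of the other contrasts either. There the block gave 0 calls over all genes between Old and Young (2269 at an unadjusted p under 0.05 in edgeR), beside 191 on the same libraries without it. Cybb, Cyba, Tmem41b and Prkaa2 thus lost their calls between Old and Young with the block. Between Old-OSK and Young the block left Map1lc3b (0.27, adjusted p = 0.0589) and Atg16l1 (0.24, adjusted p = 0.115) short of the threshold and called Atg7 (0.27, adjusted p = 0.0463).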
